A study of Mus musculus with 4 samples.

Results

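Cytosolic ribosomal proteins were measured by 106 of the 45101 probe sets on the array, for 50 of the 18193 genes that had a probe set of their own. A probe set is a group of short oligonucleotides that together measure 1 transcript. The members were taken by name. Each was annotated to exactly 1 gene symbol beginning with Rpl or Rps and a number, or to Rplp0, Rplp1, Rplp2, Rpsa or Fau. The ribosomal S6 kinases, symbols of pseudogenes and Rps19bp1 were left out. The small subunit was represented by 58 probe sets of 24 genes and the large subunit by 48 probe sets of 26 genes. Names beginning with a 7-digit number are the manufacturer's probe set identifiers.

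The ribosome translates mRNA with a small subunit, which reads the message, and a large subunit, which forms the peptide bond. Each subunit is built on ribosomal RNA with many small basic proteins, which are made in the cytoplasm, carried to the nucleolus and assembled there. The mRNAs of these proteins are abundant and mostly start with a run of pyrimidines, the terminal oligopyrimidine tract, through which mTORC1 and the RNA-binding protein Larp1 regulate their translation. In heart muscle, ribosome production is known to increase when the cells enlarge.

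The cells were HL-1, an atrial muscle cell line from the mouse, which beats in culture and was grown to confluence in Claycomb medium. In 2 samples they were stimulated electrically for 24 h at 300 beats per minute, which the labels put at about 1.5 to 2 times the control rate. In the other 2 samples, the controls, they contracted spontaneously. Total RNA from each sample was hybridised to 1 Affymetrix array. Pacing at the control rate was not part of the groups, so rate and stimulation cannot be told apart. HL-1 is a single line, so the samples are cultures of 1 cell source. The titles call the stimulated samples experiments 1 and 2, and those of the controls give no number. Controls 1 and 2 are numbered here by their order in the series. The labels do not otherwise say whether the arrays of a group came from separate cultures. The p-values rest only on the spread among these samples, shared in part between probe sets, and that spread may be technical. These are bulk RNA samples, in which fewer cells of a type and less RNA per cell cannot be told apart.

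All values are deposited log2 signals, and a change is stimulated minus control on that scale, so that 1 unit is a doubling. The signals of the 4 arrays had medians of 4.96 to 5.01. Probe sets whose mean signal reached 4.39, the 40th percentile, were tested with limma, which left 27000 of the 45037 that were not manufacturer's controls. A probe set was called, and is said to have risen or fallen, when its p after Benjamini-Hochberg adjustment over all of these was under 0.05. By this rule 1039 probe sets were called (3.85%), of which 666 rose (2.47%) and 373 fell (1.38%). Of 8 atrial muscle marker genes, 8 were tested and 7 had a mean signal of 10 or more, and Myl7, the atrial myosin light chain, had a mean of 13.71. The tested probe sets of this marker list numbered 12, with a median change of −0.298, and 1 rose and 1 fell. Among fibroblast, endothelium and leukocyte markers, 3 of 5, 1 of 4 and 1 of 4 genes were tested, with highest gene means of 6.42, 5.68 and 5.42. The leukocyte gene was Cd68, also a lysosomal protein of other cells, which rose by 2.08 (adjusted p = 0.0231), whereas Ptprc, the pan-leukocyte phosphatase, lay below the filter with signals of 3.04 to 3.51. The part of these markers in the results below was not tested.

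With rapid stimulation, most ribosomal protein probe sets read slightly higher, and few passed the test. Of 95 tested, 3 rose (Rps24, Rpl12 and Rpl41) and 0 fell, against 2.47% and 1.38% of all probe sets. At an unadjusted p under 0.05, 10 were higher and 1 was lower, against 3234 higher and 3213 lower of all 27000 probe sets. The change was positive in 83 and negative in 12, with a median of 0.116 and a middle range of 0.038 to 0.214. Over all 27000 probe sets the median was −0.019 and the middle range −0.208 to 0.179. Both stimulated arrays lay above both control arrays in 52 of the 95 (54.7%), against 25.3% of all probe sets. They lay below in 6 (6.32%), against 28.8% of all. In the remaining 37 the groups overlapped. Probe sets of ribosomal proteins share arrays, and some share a gene and sequence, so these counts are a description and not a test.

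The same pattern was visible in the mean over the tested members on each array. It was 11.18 and 11.24 on control arrays 1 and 2 and 11.35 and 11.37 on stimulated arrays 1 and 2. Both stimulated arrays were above both controls, by a mean of 0.152. The lower stimulated array exceeded the higher control array by 0.110, while the arrays differed by 0.056 within the controls and by 0.028 within the stimulated group. For the 59 members with a mean signal of 12 or more, described below, the gap between groups was 0.06. This was less than the 0.082 between the controls and more than the 0.006 between the stimulated arrays. Over all tested probe sets the 4 array means lay between 7.161 and 7.165.

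Both subunits had mostly small positive changes. The small subunit had 50 tested probe sets, of which 44 were positive and 6 negative, with a median change of 0.102. Of these, 1 rose and 0 fell, and 25 (50%) had both stimulated arrays above both controls. The large subunit had 45, of which 39 were positive and 6 negative, with a median of 0.136. Of these, 2 rose and 0 fell, and 27 (60%) had both stimulated arrays above. Over all probe sets tested, 2.47% rose, 1.38% fell and 25.3% had both stimulated arrays above both controls. Both stimulated arrays were below in 1 small-subunit probe set (2%) and in 5 of the large subunit (11.1%), against 28.8% of all probe sets. The array means of the small subunit differed between groups by 0.147 and those of the large subunit by 0.157. For the small subunit, the lower stimulated array exceeded the higher control array by 0.123, and the controls differed by 0.027. For the large subunit these gaps were close, 0.096 and 0.089. The difference between subunits was not tested. Counted by gene, every tested probe set was positive in 39 of 47 genes and every one negative in 2, Rpl3l and Rpl27a. The other 6, Rps24, Rps28, Rps29, Rps4x, Rpl37a and Rpl7l1, had both signs.

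**Figure D1:**
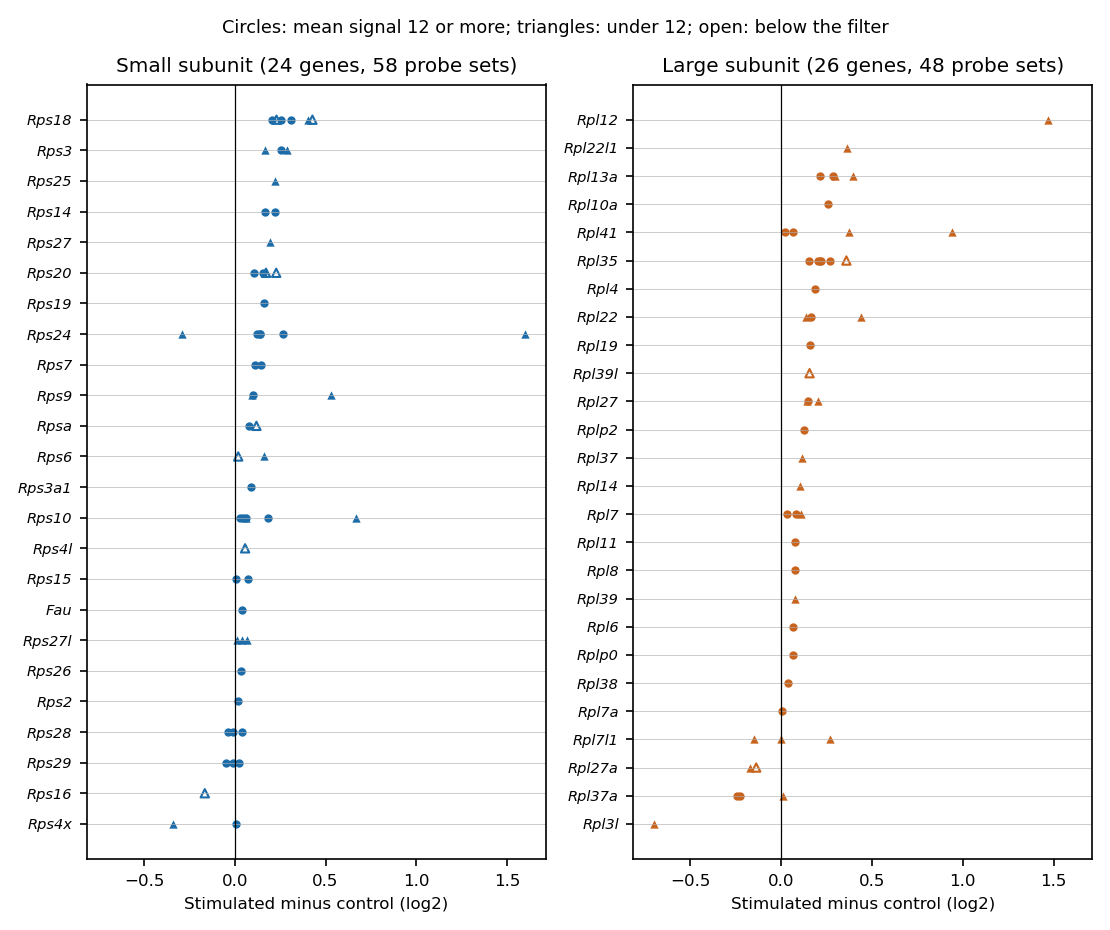
Change in log2 signal (stimulated minus control, means of 2 arrays each) of each of the 106 ribosomal protein probe sets, 1 row per gene, for the small subunit (blue) and the large subunit (orange). Circles have a mean signal of 12 or more, triangles are dimmer and open triangles lie below the filter. The circles crowd just right of 0, and the widest changes, up to 1.60 for Rps24 and down to −0.70 for Rpl3l, are triangles.

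Changes were narrower among bright members than among dim ones. At a mean signal of 12 or more, a level chosen after the values were seen, there were 59 tested probe sets of 35 genes. None of them was called by limma, and 0 had an unadjusted p under 0.05. Their adjusted p ranged from 0.225 to 0.994. Of the 59, 53 were positive, with a median of 0.10 and a range of −0.245 to 0.311, and 36 (61.0%) had both stimulated arrays above both controls. The fit shares variance between probe sets, and the median standard error of the 59 was 0.127. Changes this small could hardly pass, however close the arrays of a group lay, so the absence of calls says little. Among the 406 other probe sets of the array at this level, 31.5% had both stimulated arrays above and 37.9% below, the median was −0.036, and 8 rose and 3 fell. At an unadjusted p under 0.05, 31 of these 406 were higher and 45 lower. The array means of the bright members were 12.902 and 12.984 in controls and 13.044 and 13.050 with stimulation, those of the other bright probe sets 12.689 and 12.704 against 12.636 and 12.678. The 36 tested members under 12 had a median change of 0.152, and all 3 calls were among them. Whether signals near the top of the range understate changes was not tested, and the other probe sets at this level ranged from −1.034 to 1.173.

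**Figure D2:**
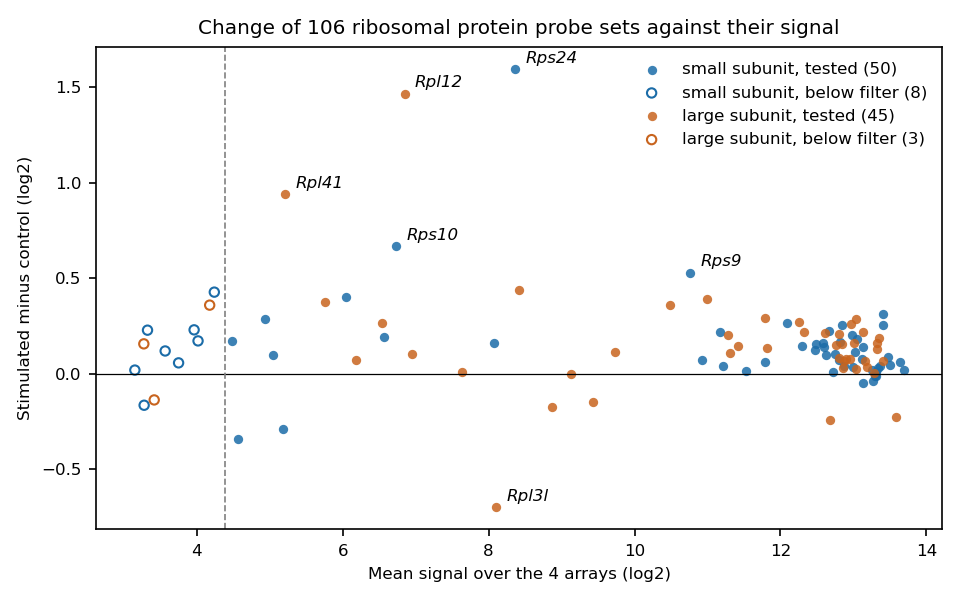
Change in log2 signal (stimulated minus control) of the 106 ribosomal protein probe sets against their mean log2 signal over the 4 arrays, small subunit in blue and large subunit in orange, with open circles for the 11 below the filter. The 59 probe sets with a mean of 12 or more lie between −0.245 and 0.311, and the 3 that rose have means under 12.

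Among small-subunit proteins, Rps18, Rps24 and Rps3 had the largest changes of the bright probe sets, up to 0.31, 0.26 and 0.26. Rps18 sits in the head of the subunit and is a common reference gene for expression. Its probe set 1435712_a_at read 13.17 and 13.34 in controls and 13.54 and 13.59 with stimulation, a change of 0.31 ± 0.13 (SE, n = 2 per group; adjusted p = 0.225). The stimulated arrays were both above the controls, but the difference did not pass the test. Its other bright probe sets changed by 0.25 and 0.20 and the dim 1421837_at by 0.40. Rps3, which lies at the entry of the mRNA channel and also takes part in DNA repair, read 12.67 and 12.77 in controls and 13.00 and 12.95 with stimulation on 1435151_a_at (0.26 ± 0.13, adjusted p = 0.287). The groups did not overlap there. They overlapped on 1455600_at, a dim probe set of Rps3 with a change of 0.29 ± 0.37.

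The other bright small-subunit genes changed by 0.22 or less, with standard errors near 0.131, the median over the tested members. Rps14, of the platform, changed by 0.17 and 0.22 on its probe sets. Rps19 and Rps7, both mutated in some patients with Diamond-Blackfan anaemia, changed by 0.16 and by 0.11 and 0.15. Rps20 changed by 0.10 and 0.16, Rps3a1 by 0.09, and Rpsa, the laminin receptor precursor protein, by 0.08. Rps15, Rps26 and Fau, whose product is a ubiquitin-like protein fused to a small-subunit protein, lay between 0.01 and 0.07. Rps28 (−0.04 to 0.04), Rps29 (−0.05 to 0.02), Rps2 (0.02) and the bright Rps4x probe set (0.01) were closest to 0. All of these missed the threshold, which does not show that they were equal between the groups.

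Rps6, Rps25 and Rps27 were tested only on probe sets with means under 12. Rps6, the substrate of the S6 kinases downstream of mTORC1, read 8.06 and 7.92 in controls and 7.93 and 8.38 with stimulation on 1416142_at (0.16 ± 0.18, adjusted p = 0.662). Its groups overlapped. Rps25, needed for some internal initiation, changed by 0.22 ± 0.22 with overlapping groups, and Rps27 by 0.19 ± 0.12 with groups apart.

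On the large subunit, the bright probe sets with the largest changes belonged to Rpl13a, Rpl35 and Rpl10a. Rpl13a, which also acts outside the ribosome in silencing inflammatory mRNAs, read 12.79 and 12.99 in controls and 13.15 and 13.20 with stimulation on 1417608_a_at (0.29 ± 0.14, adjusted p = 0.271). Its 4 probe sets changed by 0.22 to 0.39, each with both stimulated arrays above both controls, and the smallest adjusted p was 0.162. Rpl35, near the peptide exit, changed by 0.16 to 0.27 on 5 bright probe sets. Rpl10a, part of the stalk at the exit site for tRNA, changed by 0.26 ± 0.12 (adjusted p = 0.271).

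Rpl4 and Rpl19 changed by 0.18 and 0.16, Rpl27 by 0.14 to 0.20 on 3 probe sets, and Rpl7 by 0.03 to 0.11. Proteins of the stalk that binds elongation factors changed little, Rplp0 by 0.06 and Rplp2 by 0.13. Rpl11, which with Rpl5 binds Mdm2 when ribosome assembly fails, changed by 0.08 ± 0.13, with overlapping groups. No probe set of Rpl5 alone was analysed here. Rpl6, Rpl8, Rpl38 and Rpl7a lay between 0.00 and 0.07. Among genes read only below a mean of 12, Rpl14, Rpl37 and Rpl39 changed by 0.10, 0.12 and 0.07.

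Rpl37a, a small zinc-binding protein, was an exception among the bright probe sets. On 1416217_a_at it read 13.71 and 13.68 in controls and 13.42 and 13.52 with stimulation, and on 1460543_x_at 12.74 and 12.86 against 12.48 and 12.62. The changes were −0.23 ± 0.13 and −0.24 ± 0.13 (adjusted p = 0.343 and 0.334), with both stimulated arrays below both controls on each. A dim probe set of the gene, 1416218_x_at, changed by 0.01. Rpl27a changed by −0.17 ± 0.15 on 1437729_at.

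The 3 probe sets that rose had mean signals of 8.36 (Rps24), 6.85 (Rpl12) and 5.21 (Rpl41), below the bright group, and each is 1 view of its gene. Rps24, a small-subunit protein needed to process the precursor of its ribosomal RNA, read 7.38 and 7.75 in controls and 9.35 and 8.98 with stimulation on 1455195_at. This was a rise of 1.60 ± 0.20 (SE, n = 2 per group), or 3.02-fold, with an adjusted p of 0.0264. The arrays of the groups were far apart. The 4 bright Rps24 probe sets changed by 0.12 to 0.26 and 1436500_at by −0.29, so the probe sets of this gene differed by up to 1.89.

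Rpl12, at the base of the large subunit's factor-binding stalk, had only the probe set 1435655_at, which read 6.33 and 5.90 in controls and 7.89 and 7.27 with stimulation. It rose by 1.47 ± 0.25, or 2.76-fold (adjusted p = 0.0408). The groups did not overlap. Rpl41, the shortest of the ribosomal proteins, read 4.53 and 4.95 in controls and 5.72 and 5.65 with stimulation on 1433530_at. It rose by 0.94 ± 0.17, or 1.92-fold (adjusted p = 0.047). Its other dim probe set, 1454639_x_at, changed by 0.38 ± 0.14, while its bright ones changed by 0.07 and 0.02 with overlapping groups.

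These rises rest on 4 arrays together: in the 4 fits that each left out 1 array, none of the 3 probe sets was called, with adjusted p of 0.0584 to 0.131 for Rps24, 0.0617 to 0.204 for Rpl12 and 0.112 to 0.181 for Rpl41. With each gene taken as the mean of its probe sets, Rps24 changed by 0.33 (adjusted p = 0.145) and Rpl41 by 0.35 (adjusted p = 0.193), and neither was called.

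**Figure D3:**
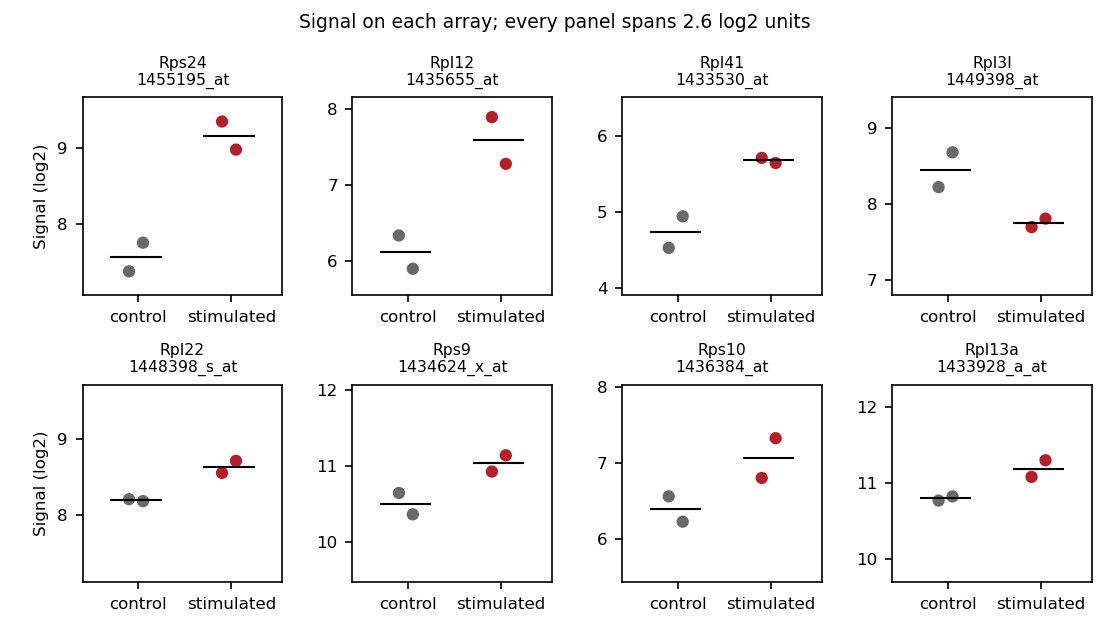
Log2 signal of the 8 ribosomal protein probe sets with the smallest p on each array, with controls in grey, stimulated arrays in red and lines at the group means; each panel spans the same 2.6 log2 units. The groups stand apart in all 8 panels, and Rps24, Rpl12 and Rpl41 (the first 3 panels) rose, while the others did not pass the test.

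Besides Rps24 and Rpl41, Rps10, near the mRNA entry, was the other gene of 3 whose tested probe sets differed in change by over 0.5. Its dim probe set 1436384_at read 6.56 and 6.23 in controls and 6.80 and 7.33 with stimulation (0.67 ± 0.22, adjusted p = 0.137), whereas its other 5 changed by 0.03 to 0.18. Likewise Rps9, at the same channel, read 10.64 and 10.36 against 10.92 and 11.14 on 1434624_x_at (0.53 ± 0.16, adjusted p = 0.119), and changed by 0.10 on each of its other probe sets. Rpl22, an RNA-binding protein of the large subunit, read 8.20 and 8.18 against 8.55 and 8.71 on 1448398_s_at (0.44 ± 0.13, adjusted p = 0.118) and changed by 0.14 and 0.16 on the others. In each case the probe set with the widest change had both stimulated arrays above both controls and did not pass the test.

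Paralogs, second genes for a ribosomal protein, did not share 1 direction. Rpl3l is the striated-muscle paralog of Rpl3. It read 8.23 and 8.69 in controls and 7.70 and 7.81 with stimulation, and its change of −0.70 ± 0.18 was the most negative among the members (adjusted p = 0.0912). The groups did not overlap, but the difference missed the threshold. Rpl22l1, the paralog of Rpl22, read 10.25 and 10.37 against 10.69 and 10.65 (0.36 ± 0.13, adjusted p = 0.165), with groups apart in the other direction.

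Rps27l, a p53-inducible paralog of Rps27, changed by 0.01 to 0.07 on 3 probe sets with overlapping or touching groups. Rpl7l1, related to Rpl7 and involved in large-subunit assembly, changed by −0.15, 0.00 and 0.27 on its probe sets, with no agreement in sign. Rps4l and Rpl39l, a germ-cell paralog of Rpl39, lay below the filter with signals under 4 on every array, where Rps4l changed by 0.06 and Rpl39l by 0.16. No probe sets of Rpl3, Rpl10l or Rpl36al alone were analysed here.

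The 11 probe sets below the filter, 8 of the small and 3 of the large subunit, were not tested. Their changes ran from −0.17 to 0.43. They left 3 genes without a tested probe set, Rps16, Rpl39l and Rps4l. The other 8 belonged to genes with another, tested probe set, among them Rps18, Rpsa, Rps20, Rps6, Rpl35 and Rpl27a. For Rpsa, 1416196_at read 3.46 to 3.79 on the 4 arrays, although the gene has a tested probe set, so a low signal describes the probe set and not the gene.

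The calls were also counted by probe set design. Identifiers ending in _x_at, 40 of the 106, contain probes that also match other transcripts. Those ending in _a_at (29) match several transcripts of 1 gene, and those ending in _s_at (3) several transcripts. The 72 with any of these suffixes had 70 tested, with 0 called and a median change of 0.111. The 34 with a plain identifier had 25 tested, with all 3 calls and a median of 0.149. These 3 also had mean signals under 12. Over all probe sets tested, of any design, 2.47% rose and 1.38% fell. Ribosomal protein genes have many near-identical pseudogene copies, so signal of an _x_at probe set cannot be assigned to 1 gene with certainty. The part of design and signal in the calls was not tested.

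Promoter sequence is shown for the genes above because the pyrimidine tract at the transcript start is the feature these mRNAs are known for. Windows ran from 30 bases before to 30 bases after each start annotated by RefSeq on GRCm38.p6 (44 of the 50 genes matched, with 52 starts), written 5′ to 3′ on the gene's strand, with the longest unbroken run of C or T in capitals. The first 5 are of genes with the widest positive changes or a called probe set, and the last is that of Rpl3l. Both annotated starts of Rps24 are given.
Rps24 first start, chr14:24490648-24490707, plus strand: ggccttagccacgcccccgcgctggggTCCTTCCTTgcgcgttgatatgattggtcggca
Rps24 second start, chr14:24490723-24490782, plus strand: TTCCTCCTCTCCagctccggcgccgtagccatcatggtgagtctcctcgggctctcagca
Rpl12, chr2:32961682-32961741, plus strand: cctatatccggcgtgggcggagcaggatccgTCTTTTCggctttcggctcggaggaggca
Rpl41, chr10:128549139-128549198, minus strand: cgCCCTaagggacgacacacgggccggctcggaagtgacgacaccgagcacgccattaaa
Rps10, chr17:27635215-27635274, minus strand: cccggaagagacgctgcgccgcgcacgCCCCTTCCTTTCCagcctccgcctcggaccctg
Rpl3l first start, chr17:24727796-24727855, plus strand: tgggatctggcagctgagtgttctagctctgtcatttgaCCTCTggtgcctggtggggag

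The runs in these windows were 9 and 12 bases for Rps24, 7 for Rpl12, 4 for Rpl41, 13 for Rps10 and 5 for Rpl3l. Rps18 and Rpl13a, bright genes with groups apart, had long runs. Other such genes had short ones, among them Rps3 with 6 bases and Rpl27 with 5.
Rps18, chr17:33955636-33955695, minus strand: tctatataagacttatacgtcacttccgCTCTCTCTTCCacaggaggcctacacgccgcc
Rpl13a, chr7:45128716-45128775, minus strand: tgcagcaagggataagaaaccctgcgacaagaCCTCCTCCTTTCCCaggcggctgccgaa
The runs were 11 bases for Rps18 and 14 for Rpl13a. The longest runs in the member windows, 21, 20, 18, 17 and 16 bases, were those of Rpl7a, Rpl27a, Rpl35, Rpl11 and Fau. The tested probe sets of these genes changed by 0.00, −0.17, 0.16 to 0.27, 0.08 and 0.04. Whether run length went with change was not tested. A run of at least 8 bases stood in 26 of the 52 member windows (50%), against 7535 of 32851 windows of all annotated starts (22.9%). The median run was 7.5 bases for members and 5 for all. The search covered the gene's strand only, and annotated starts can be off by some bases, so a short run says only that no longer one lies in the window. A run at the window's edge, as in the second Rps24 window and that of Rpl11, may be longer than given. The longest run could lie anywhere in the window and need not be the tract at the transcript start. Both long and short runs occurred among the genes with called probe sets.

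Other RNAs listed as having such tracts were read for comparison. Their own starts were not searched for runs. The list held elongation factors, poly(A)-binding protein and host genes of small nucleolar RNAs, with 49 tested probe sets of 22 genes. Of these, 5 rose and 0 fell, against 2.47% and 1.38% of all probe sets. The median change was 0.242, against −0.019 over all, and 37 (75.5%) had both stimulated arrays above both controls, against 25.3%. All 5 belonged to host genes, whose introns carry the small nucleolar RNAs that guide ribosomal RNA modification and whose spliced RNAs are not known to make stable protein. Snhg12 read 8.11 and 8.21 in controls and 9.90 and 9.34 with stimulation (1.45 ± 0.21, adjusted p = 0.0309). Snhg1 rose on 3 of its probe sets by 0.69 to 0.94 (adjusted p = 0.0279, 0.0373 and 0.0496) and changed by 0.51 and 0.36 on its others. Gas5 rose by 1.14 on 1 probe set (adjusted p = 0.0496) and changed by 0.85 to 1.07 on its other 3.

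Split after the values were seen, the host genes had 13 tested probe sets with a median change of 0.906 and 5 rises. The protein-coding genes of the list had 36, with a median of 0.198, 0 called by limma and 8 at an unadjusted p under 0.05. All 8 were higher. Over all 27000 probe sets, 3234 were higher and 3213 lower at that unadjusted p. Eef2, the translocation factor, read 12.39 and 12.43 against 12.62 and 12.69 (0.24 ± 0.13, adjusted p = 0.306). Eef1b2 changed by 0.25, and Eef1a1, Tpt1 and the bright Pabpc1 probe set by 0.03, 0.04 and 0.02. Other genes of the list had wider changes, none of them called. Hnrnpa1, a splicing and RNA transport protein, changed by 0.79 (adjusted p = 0.0912), 0.44 and −0.13 on its probe sets. Btf3, of the nascent polypeptide-associated complex, changed by 0.48 (adjusted p = 0.0903) and 0.30. Eif3e, a subunit of an initiation factor, changed by 0.35 to 0.48. These were chosen after their values were seen. Of the 36, 33 were positive and 3 negative, with a range of −0.27 to 0.787, and the difference from the ribosomal proteins was not tested.

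Dedicated chaperones and general import receptors carry new ribosomal proteins to the nucleus. In this list 28 probe sets of 16 genes were tested, of which 3 rose and 0 fell, against 2.47% and 1.38% of all probe sets. The median change was 0.290, against −0.019. Both stimulated arrays lay above both controls in 18 (64.3%) and below in 6 (21.4%), against 25.3% and 28.8% of all. The import receptors Kpnb1, Ipo5, Ipo7 and Tnpo1 changed by −0.22 to 0.30 on their tested probe sets, with none called. Grwd1, the chaperone of Rpl3, read 8.41 and 8.16 in controls and 9.23 and 9.27 with stimulation on 1 probe set (0.96 ± 0.14, adjusted p = 0.0338). It rose by 0.80 on a second probe set (adjusted p = 0.0403) and changed by 0.63 on its other one. Pdcd2l, related to the Rps2 chaperone Pdcd2, rose by 0.80 ± 0.14 on 1 probe set (adjusted p = 0.0406) and changed by 0.72 on its other. Tsr2, the escort of Rps26, changed by 0.63 ± 0.13 (adjusted p = 0.0548) and 0.46 on its probe sets and missed the threshold, beside the change of 0.04 of its client Rps26.

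Genes that control ribosomal protein mRNA, the mTORC1 pathway, Larp1 and Myc among them, had 64 tested probe sets of 27 genes. None was called by limma, and the median was 0.151, against −0.019 over all probe sets. At an unadjusted p under 0.05, 13 were higher and 3 lower, against 3234 higher and 3213 lower of all 27000 probe sets. The smallest p belonged to Cnbp, which binds the pyrimidine tract region (0.55 ± 0.13, adjusted p = 0.0704). Its other probe set changed by 0.65 (adjusted p = 0.113). Tial1, which binds such mRNAs, changed by 0.41 to 0.53 on 3 probe sets (smallest adjusted p = 0.0788) and by −0.14 and 0.02 on its other ones, where the groups overlapped. Larp1 changed by 0.40 ± 0.13 (adjusted p = 0.133) and Myc by 1.08 ± 0.29 (adjusted p = 0.0944), each with both stimulated arrays above both controls. Pdcd4 and Tsc2 each changed by −0.39 (adjusted p = 0.133 and 0.135), with both stimulated arrays below both controls.

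Genes of ribosome surveillance and rescue had 48 tested probe sets of 20 genes, with a median of 0.008, and 3 rose and 0 fell, against 2.47% and 1.38% of all. All 3 were of Gtpbp2, which acts at stalled ribosomes and rose by 1.44, 1.36 and 0.92 (adjusted p = 0.023, 0.0273 and 0.0401), with its other probe set at 0.74. Nufip1 changed by 0.83 (adjusted p = 0.0573). In the list of p53 and the ribosomal protein checkpoint, with 12 tested probe sets of 6 genes, 0 rose and 1 fell, against the same shares, with a median of 0.181. Cdkn2a, the tumour suppressor locus that includes the Mdm2 inhibitor Arf, read 7.55 and 7.35 in controls and 6.73 and 6.49 with stimulation (−0.83 ± 0.15, adjusted p = 0.047). Mdm2 changed by −0.36 and 0.24 on its probe sets, and neither passed the test. Cdkn1a had the widest positive changes of the list, 0.94 and 0.65 (adjusted p = 0.278 and 0.375), with overlapping groups on both probe sets. Rrp8 changed by 0.50 (adjusted p = 0.0839) and Nop53 by 0.15 to 0.34.

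**Figure D4:**
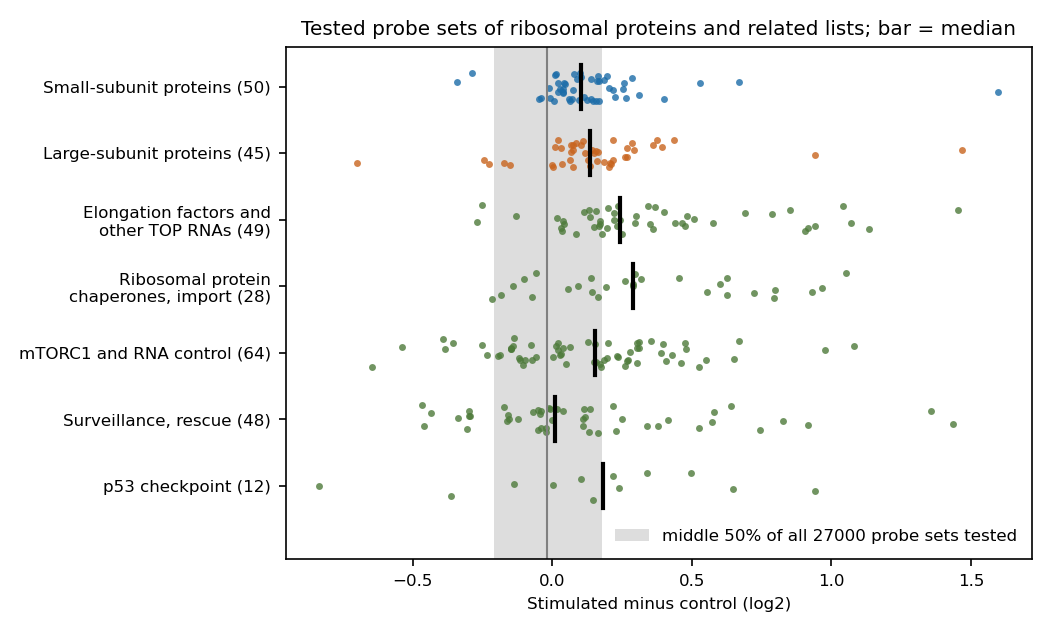
Change in log2 signal (stimulated minus control) of each tested probe set of the ribosomal proteins and of 5 related gene lists, with the number of probe sets in brackets, a bar at each median, a grey line at the median of all 27000 probe sets and a band from their lower to their upper quartile, −0.208 to 0.179. The ribosomal protein medians are 0.102 and 0.136, and the list of chaperones and import receptors has the highest of the 7 medians, 0.290.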

How the data were processed

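Per the submitters' processing notes, the authors made the deposited log2 values with RMA, a method of background correction, quantile normalization and summary over probes. Its version and settings are not given in the sources used here. Gene symbols came from GEO's platform annotation. Of 45037 probe sets, 34945 had 1 symbol, 932 several and 9160 none. Those with 1 symbol were matched by gene identifier to RefSeq (34741 found, with 0 symbols to update).

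Stimulated and control arrays (2 each) were compared per probe set by a two-sided test in limma 3.58.1 (functions lmFit and eBayes, under R 4.3.3), without a block, for 27000 probe sets with a mean of at least 4.39. The script was tested on simulated data. Errors are standard errors of the fit, which shares variance between all tested probe sets. They and the p-values therefore do not reflect the spread of 1 probe set alone. For Rplp2 the SDs within groups were 0.0071 and 0.0057, and the standard error was 0.1233. The smallest two-sided p of an exact permutation test of 2 against 2 arrays is 0.333, and none was used.

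The members and gene lists were chosen with earlier results of these data known. Named genes were called members, those with the smallest p or the largest, brightest or dimmest values, genes whose probe sets differed by over 0.5, paralogs, well-studied members and, per other list, the 4 smallest p and called probe sets. The others were named to account for every gene. Alternatives covered the filter, the unit tested, centring, the trend, a block and each array left out.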

Additional observations from a re-analysis of the deposited data

How the results depend on the processing

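With 2 arrays in each group, precision was limited. Without 1 array, where the lone sample of a group is assumed to vary as the others, all calls fell from 1039 to between 7 (without control 2) and 117 (without stimulated 1), with 25 without control 1 and 89 without stimulated 2. Of these 7 to 111 were higher and 0 to 28 lower. Ribosomal protein calls fell from 3 to 0, and the median change was 0.088 to 0.153 over all members and 0.103 to 0.179 over the large subunit. With the replicate number as a block there were 2041 calls (1194 higher and 847 lower), with 3 of ribosomal proteins. Only the stimulated samples carry numbers in their titles, so the pairing was not used. Deviations of same-numbered arrays correlated at 0.31 over all tested probe sets and −0.008 over the members. Whether same-numbered arrays were processed together is not stated, and an effect of this was not tested. The block changed no call of a named member. Plain identifiers alone gave 671 calls (427 higher and 244 lower) and medians of 0.149 for members, 0.182 for the small and 0.103 for the large subunit. The 60th percentile filter gave 591 falls and 2 member calls. The brightest probe set per gene gave 214 falls, 1 member call and a large-subunit median of 0.076. The mean per gene gave 1 member call and a large-subunit median of 0.103. No filter gave 1 member call, with an adjusted p of 0.0509 for Rpl12 and 0.056 for Rpl41. Centring the arrays on their medians, which differ between groups by −0.013, moved the share of higher calls from 64.1% to 68.1%, the brightest probe set per gene to 70.4%, and no alternative with all 4 arrays moved it by over 10 percentage points. The trend, centring and leaving out probe sets of several symbols, which was chosen after seeing the data, moved no count by over 1.5 times and no median by over the spread between arrays (SD 0.03).

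Signs near 0 were not stable. With probe sets averaged per gene, Rpl7l1 had 0.04 in place of −0.15 (1426386_at) and 0.00 (1452049_at, 0.01 after centring), Rps24 0.33 in place of −0.29 and Rps4x −0.17 in place of 0.01. Without 1 array, changes of uncalled members that turned sign ranged from −0.04 to 0.12 for Fau, −0.01 to 0.16 for Rpl11, −0.03 to 0.30 for Rpl22 (1416603_at), −0.01 to 0.16 for Rpl39, −0.09 to 0.22 and −0.14 to 0.18 for Rpl41 (1422623_x_at and 1455578_x_at), −0.01 to 0.01 for Rpl7l1 (1452049_at), −0.03 to 0.15, −0.08 to 0.20 and −0.04 to 0.10 for Rps10 (1416719_a_at, 1439374_x_at and 1456497_x_at), 0.00 to 0.04 for Rps2, −0.07 to 0.15 and −0.06 to 0.08 for Rps27l (1423254_x_at and 1450925_a_at), −0.17 to 0.74 for Rps3 (1455600_at), −0.73 to 0.05 for Rps4x (1420303_x_at) and −0.06 to 0.38 for Rps6. The cause was not tested.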

Other observations

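A further 110 probe sets carried several gene symbols, at least 1 of them of a ribosomal protein gene, and were no members. Of these, 104 were tested. Rises were called by limma in 1 and falls in 0, against 2.47% and 1.38% of all probe sets. At an unadjusted p under 0.05, 3 were higher and 1 lower, against 3234 higher and 3213 lower of all 27000 probe sets. Their median change was 0.101, beside 0.116 for the members and −0.019 over all. Both stimulated arrays lay above both controls in 57 (54.8%) and below in 7 (6.73%), against 25.3% and 28.8% of all. For 31 ribosomal protein symbols these were the only probe sets, so the members describe 50 genes and not the whole ribosome. Because a probe set of several symbols cannot be assigned to 1 gene, no gene is named from them.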
